A study of Mus musculus with 3 samples.

Results

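Genes of the lysosomal membrane, of lysosomal hydrolases and their helpers, and of the proton pump V-ATPase were described in chromatin-bound RNA of mouse macrophages. The genes were chosen by symbol, and all 37 of the 37 listed symbols were found among the 55536 genes with an Ensembl mouse identifier. The cells were primary bone marrow-derived macrophages of the C57BL/6J strain, grown from marrow, and were treated with Lipid A (100 ng/ml, 25 min), the part of bacterial lipopolysaccharide that TLR4 recognises. Ribosomal RNA was depleted and the total RNA left in the chromatin fraction was sequenced in 3 libraries, biological replicates 1, 2 and 3, made from 1000, 250 and 500 ng of RNA. All 3 libraries share the strain, the cell type, the stimulus and the time, and no untreated or other control group is analysed here, so no value below shows an induction or a repression by Lipid A. The labels give no sex or age of the animals.

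Lysosomes are the acidic compartment in which a cell breaks down what it has taken up or marked for recycling, and macrophages, which engulf microbes and dead cells, depend on them. The V-ATPase acidifies the lumen: its cytosolic V1 sector splits ATP and turns a rotor that drives protons through the membrane-embedded V0 sector. The transcription factors TFEB and TFE3 enter the nucleus when the kinase complex mTORC1 is inactive, and they bind a short E-box-like element in the promoters of many lysosomal genes. RNA bound to chromatin is rich in transcripts that are still being made or spliced, so a level here reflects nascent and retained RNA more than the cytoplasmic messenger pool.

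The libraries held 13525994, 19230763 and 19207049 expected counts, and the 37 genes took 0.601%, 0.650% and 0.610% of them in replicates 1, 2 and 3. Levels are in TPM, that is counts per effective length of the gene, scaled to a fixed sum over genes of at least 300 nt. All 8 macrophage markers, among them Csf1r at 535 ± 152 TPM (SD, n = 3) and Lyz2 at 422 ± 171 TPM, reached 1 TPM. Of the 8 osteoclast markers 3 did so, Nfatc1 at 28.6 TPM, Dcstamp at 2.38 TPM and Ctsk at 2.16 TPM, while Oscar had no counts, and the list summed to 28.9 to 36.9 TPM per library. Ngp was the 1 neutrophil marker of 6 at 1 TPM or more, and no T cell, B cell or erythroid marker reached it. Of the 4 fibroblast and endothelial markers Kdr did, at 5.23 TPM on 200, 155 and 262 counts, and of the 3 mast cell and basophil markers Kit did, at 1.71 TPM. The 3 ribosomal DNA locus genes took 8.46%, 27.1% and 23.1% of the counts in replicates 1, 2 and 3, which lowers the TPM of all other genes in replicates 2 and 3.

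Promoters were examined for the letters of the element that TFEB and TFE3 are known to bind. The motifs TCACGTGA, TCACGTG and CACGTG were searched on both strands, and each shorter motif lies within the longer one. RefSeq windows of 300 bases, from 250 before to 50 after an annotated start (GRCm38.p6), were matched for 31 of the 37 genes, with 39 windows of the 32851 in the table, and a gene was counted once if any of its windows held the motif. Atp6v0d2, Atp6v1b2, Atp6v1c1, Atp6v1h, Asah1 and Npc1 had no match. TCACGTGA occurred in 5 of the 31 genes (16.1%), against 1.12% of all 27025 genes of the RefSeq table and 2.81% of its 5722 genes at 10 TPM or more. The 5 were Cln3, Mcoln1, Gla, Atp6v0d1 and Atp6v1a, which span the membrane, hydrolase, V0 and V1 groups. TCACGTG occurred in 11 of the 31 (35.5%), against 4.29% of all genes and 8.18% of those at 10 TPM or more. CACGTG alone added no further gene among the 31, while 8.09% of all genes and 12.8% of those at 10 TPM or more held it. The stretches around the matches are shown 5′ to 3′ on the strand of the gene, with capitals marking the motif, because they show how the element recurs in genes of different function:
Lamp1: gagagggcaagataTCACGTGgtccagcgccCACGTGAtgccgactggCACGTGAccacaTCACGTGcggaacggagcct
Mcoln1: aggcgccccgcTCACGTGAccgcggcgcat
Cln3: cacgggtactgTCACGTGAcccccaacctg
Gla: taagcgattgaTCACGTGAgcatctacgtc
Atp6v0d1: aggccctactgcggTCACGTGA
Atp6v1a: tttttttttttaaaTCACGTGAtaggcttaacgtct
Atp6v0b: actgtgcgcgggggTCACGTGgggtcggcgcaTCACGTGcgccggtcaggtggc
Lgmn: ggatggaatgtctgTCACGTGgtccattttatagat
Gaa: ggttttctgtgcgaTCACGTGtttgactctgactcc
Glb1: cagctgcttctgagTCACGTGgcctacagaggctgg
Naglu: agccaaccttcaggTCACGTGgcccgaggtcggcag

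These stretches lie in GRCm38.p6 at chr8:13159085-13159164 on the plus strand for Lamp1 and at chr8:3500462-3500491 on the plus strand for Mcoln1. Cln3 lies at chr7:126583340-126583369, Gla at chrX:134601215-134601244, Atp6v0d1 at chr8:105566061-105566082, Atp6v1a at chr16:44139370-44139405, Atp6v0b at chr4:117887327-117887380 and Lgmn at chr12:102439121-102439156, all on the minus strand. The plus strand carries those of Gaa at chr11:119267808-119267843, Glb1 at chr9:114401015-114401050 and Naglu at chr11:101070006-101070041. Mcoln1, Cln3 and Gla each held 2 matches, of which 1 is shown. Lamp1 held 4 copies of CACGTG, which began 61, 45, 28 and 15 bases before the start, each with the flanking base that completes TCACGTG on one strand. Gla held both of its TCACGTGA copies far upstream, at 227 and 194 bases before the start, where the annotation also places an untranslated exon of its neighbour Hnrnph2. In Atp6v0d1 the motif spans the start itself, so with the search limited to bases before the start the counts are 4, 10 and 10 genes for the 3 motifs. The stretches of Cln3, Mcoln1 and Naglu lie wholly or mostly in annotated untranslated exons of the genes themselves, so these matches are not upstream of every transcript. Members with CACGTG had a median level of 96.0 TPM (11 genes), and those with a window but no match had 122 TPM (20 genes). The median GC content of the windows was 60.7% with and 55.3% without the motif, beside 52.8% over all genes and 61.1% over genes at 10 TPM or more. A match describes letters only, and no binding was measured. The element is known from promoters of lysosomal genes, the kind chosen here, so higher shares were to be anticipated and are no result of these libraries.

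**Figure D1:**
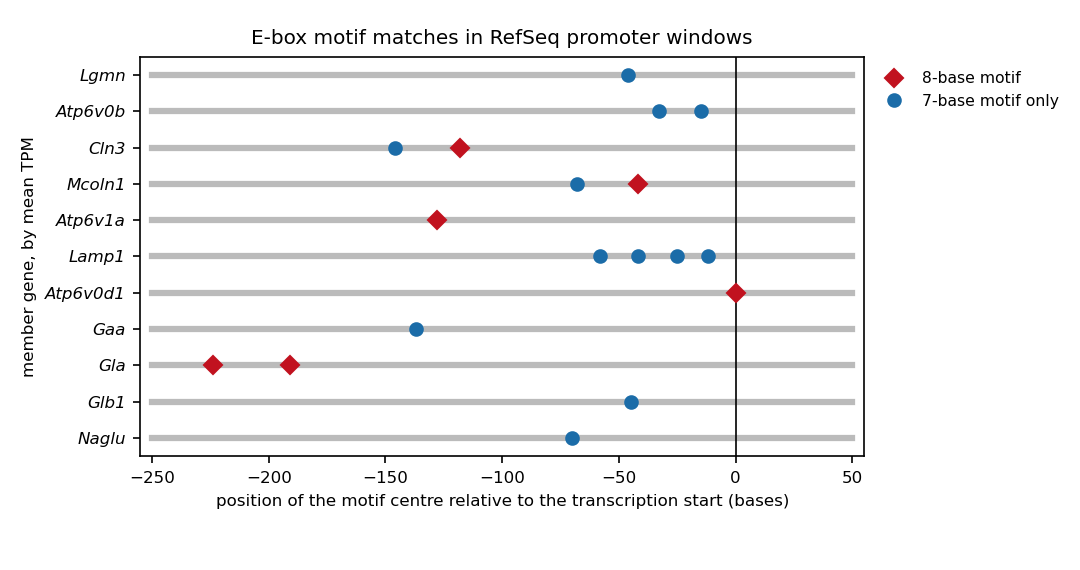
Position of each motif match relative to the RefSeq start (x axis, bases) in the 11 lysosomal genes with a match (y axis, ordered by mean TPM); grey lines are the 300-base windows, red diamonds 8-base and blue circles 7-base matches. Lamp1 has 4 matches within 61 bases of its start, and the 2 Gla matches lie farthest upstream, at 227 and 194 bases.

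As a group the lysosomal genes lay high in chromatin RNA. The values are bulk levels, in which fewer cells with a transcript and less of it per cell cannot be told apart. Their median level was 112.5 TPM, with medians of 124.5, 110.0 and 105.7 TPM in replicates 1, 2 and 3, while the median protein-coding gene had 1.09 TPM. Of the 37 genes, 36 (97.3%) reached 1 TPM and 23 (62.2%) reached 100 TPM, against 50.5% and 5.82% of 21898 protein-coding genes. The exception was Smpd1. Over 3 libraries the coefficient of variation had a median of 12.1% among the members, and of 21.7% among protein-coding genes of at least 1 TPM. These sets were not matched for level, and the spread of single members depended on the scale. With the ribosomal DNA locus genes left out, Psap went from 10.2% to 21.5%, Cln3 from 5.19% to 16.6% and Tpp1 from 10.9% to 3.36%. More members rose than fell on that scale. The medians over members and over protein-coding genes were not taken on it, so the lower member spread holds for the main scale only. The summed level of the 37 was 7453, 7400 and 7207 TPM. Put in order of mean level, 29 of the 36 neighbouring pairs had library ranges that overlap, so most ranks are not separated beyond the spread. The 7 steps without overlap fell between Psap and Atp6v0a1, Atp6v0a1 and Lgmn, Atp6v1c1 and Mcoln1, Npc1 and Cd63, Gaa and Gla, Gla and Glb1, and Naglu and Smpd1.

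**Figure D2:**
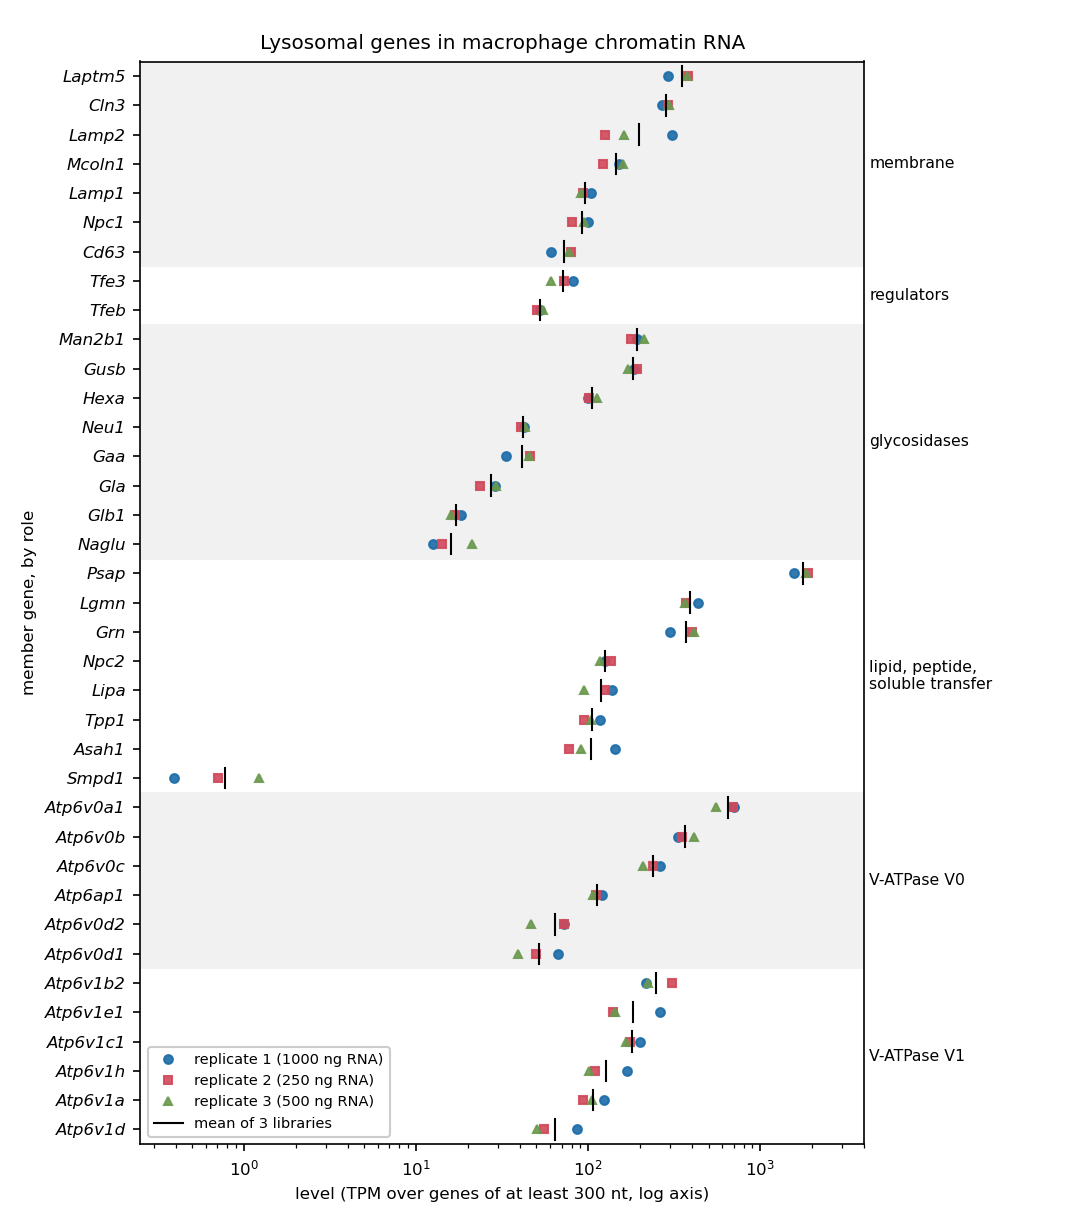
Level of each of the 37 lysosomal genes in the 3 libraries (x axis, TPM on a log scale), grouped by role (y axis); the symbols are the libraries and the black bar is their mean. Psap stands alone at the top with 1774 TPM and Smpd1 alone at the bottom with 0.771 TPM, and the means of the other genes lie between 16.0 and 647 TPM.

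The membrane genes had a median of 144 TPM over 7 genes, whose means ran from 72.4 to 350 TPM. Laptm5, a lysosomal membrane protein of blood cells, led them with 290, 382 and 377 TPM in replicates 1, 2 and 3. Cln3, the membrane protein lost in juvenile Batten disease, gave 267, 290 and 295 TPM. Replicate 1 was the lowest library for both genes, and in each library Laptm5 was the higher. The LAMP proteins form the glycosylated lining of the lysosomal membrane. Lamp2 measured 305, 126 and 162 TPM, and Lamp1 103, 93.5 and 91.3 TPM. Lamp2 was therefore the higher of the pair in every library, by 2.96-, 1.34- and 1.77-fold, and the ratio was largest in replicate 1. Mcoln1, the calcium channel TRPML1, had 144 ± 19.7 TPM (SD, n = 3), and Npc1, which moves cholesterol out of the lysosome, 91.6 ± 9.60 TPM. Cd63, a tetraspanin of late endosomes, was the lowest of the group at 61.1, 79.1 and 77.0 TPM.

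Both transcription factors were measured at moderate levels. Tfeb gave 52.3, 50.5 and 54.9 TPM and Tfe3 81.7, 72.3 and 60.6 TPM, so that the ranges did not overlap and Tfe3 was the higher in each library. That order depended on the quantification. In the second deposited table, of the kallisto type, Tfeb had 122 TPM and Tfe3 53.4 TPM, and the ratio of Tfe3 to Tfeb had a mean of 0.442 in place of 1.37. Their relative Tfec, a factor of the same family expressed in macrophages, measured 174, 53.8 and 61.5 TPM, with replicate 1 far above both other libraries.

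The glycosidases had the lowest median of the role groups, 41.7 TPM over 8 genes. Man2b1, the lysosomal alpha-mannosidase, had 192, 176 and 210 TPM, and Gusb, beta-glucuronidase, 183, 191 and 170 TPM. These ranges overlap. Hexa, the alpha subunit of beta-hexosaminidase, followed at 99.3, 101 and 113 TPM. Replicate 3 was the highest for this gene, and its 3 values lay close together on this scale. With the ribosomal DNA locus genes left out, Hexa had 108, 139 and 148 TPM. In the kallisto-type table Man2b1, Gusb and Hexa had means of 129, 139 and 133 TPM, so their order differs between the tables. The sialidase gene Neu1 had 42.5, 40.8 and 42.6 TPM, the smallest coefficient of variation of the 37 on this scale, but 46.1, 56.1 and 55.9 TPM with the ribosomal DNA locus genes left out, where Tpp1 varied least. Gaa, which degrades glycogen, gave 33.3, 45.6 and 45.0 TPM. Gla, alpha-galactosidase A, had 28.7, 23.5 and 29.1 TPM, but 79.7 TPM in the kallisto-type table, 2.94-fold more and the largest difference between the tables among the members. At the lower end stood Glb1, beta-galactosidase, with 17.0 ± 1.18 TPM (SD, n = 3), and Naglu, which trims heparan sulfate, with 12.6, 14.2 and 21.1 TPM.

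Genes for lipid and peptide breakdown and for soluble lipid transfer covered the widest range. Psap (chr10:60277627-60302597, plus strand), the precursor of the saposins that present sphingolipids to their hydrolases, was the highest of the 37 with 1566, 1903 and 1853 TPM, and it exceeded 99.96% of protein-coding genes. Lgmn, an asparaginyl endopeptidase, gave 436, 368 and 365 TPM. Grn, progranulin, had 300, 402 and 414 TPM, and its range overlapped that of Lgmn. Replicate 1 was the lowest library for Psap and Grn and the highest for Lgmn. Npc2, the soluble partner of Npc1, and the acid lipase gene Lipa lay close together at 126 ± 8.82 and 119 ± 22.3 TPM (SD, n = 3). Tpp1, a tripeptidyl peptidase, had 117, 94.1 and 103 TPM. Asah1, acid ceramidase, had 144, 77.8 and 90.9 TPM, with replicate 1 clearly above the others. Smpd1, acid sphingomyelinase, gave 0.391, 0.704 and 1.22 TPM on only 5, 14 and 23 counts, so its order among libraries rests on very few reads.

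The V-ATPase genes were among the higher members, with medians of 174 TPM over 6 V0 and accessory genes and 153 TPM over 6 V1 genes. Atp6v0a1 encodes one of the alternative a subunits, which hold the proton path beside the rotor, and gave 699, 689 and 552 TPM. The proton-carrying ring is built from the products of Atp6v0c and Atp6v0b, and these had 262, 237 and 209 TPM and 331, 352 and 409 TPM. In the RSEM-type table Atp6v0b was the higher in each library, with a mean ratio of Atp6v0c to Atp6v0b of 0.66, but that ratio was 1.10 in the kallisto-type table, so the order of the pair differs between the tables. Atp6ap1, an accessory glycoprotein, had 112 ± 6.94 TPM (SD, n = 3). The alternative d subunits were near each other, Atp6v0d2 at 72.6, 72.0 and 46.8 TPM and Atp6v0d1 at 66.4, 49.5 and 39.1 TPM. Atp6v0d2, whose product is abundant in osteoclasts, was 1.09-, 1.46- and 1.20-fold above Atp6v0d1, while the kallisto-type ratio had a mean of 0.983.

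In V1, the nucleotide-binding ring is made of the products of Atp6v1a and Atp6v1b2. Atp6v1b2 gave 217, 306 and 222 TPM, with replicate 2 above the others, and Atp6v1a 123, 93.0 and 106 TPM. Every library thus had more Atp6v1b2 RNA per length than Atp6v1a RNA. The stalk genes Atp6v1e1 and Atp6v1c1 had 262, 139 and 143 TPM and 201, 175 and 166 TPM, and Atp6v1h, a regulatory subunit, 168, 110 and 101 TPM. Atp6v1d, for the central shaft, was the lowest of the 6 at 85.9, 55.1 and 50.2 TPM. For Atp6v1e1, Atp6v1h and Atp6v1d, replicate 1 stood well above both other libraries, which lay close together.

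The V-ATPase genes outside the 37 showed which isoforms shared the pool. Tcirg1, the a3 subunit of lysosomes and osteoclasts, gave 1300, 2072 and 1768 TPM, and it exceeded Atp6v0a1 by 1.86-, 3.01- and 3.21-fold. Atp6v0a1 in turn was 27.4-, 27.5- and 19.3-fold above Atp6v0a2. Atp6v1b2 was 137-, 175- and 99.3-fold above Atp6v1b1, the kidney-type B isoform, which had 10, 15 and 16 counts. The median of the 14 other V-ATPase genes was only 3.66 TPM. After Tcirg1 the next were the accessory gene Atp6ap2 at 41.5 ± 9.79 TPM (SD, n = 3) and Atp6v0a2 at 26.4 ± 1.91 TPM, and Atp6v0a4, Atp6ap1l and Atp6v1e2 had no counts in any library. With 3 counts as the floor, no counts allow up to 0.222, 0.156 and 0.156 CPM (counts scaled to the library total) in replicates 1, 2 and 3, which covers counting error only.

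**Figure D3:**
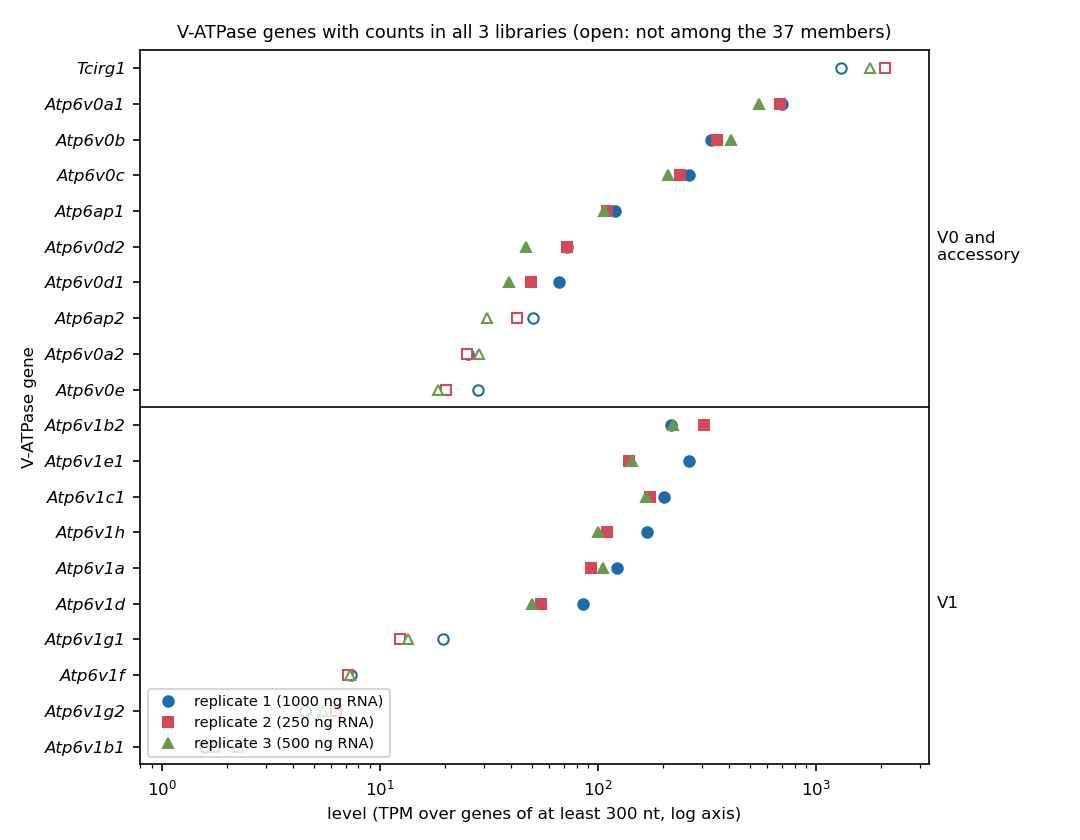
Level of the V-ATPase genes with counts in all 3 libraries (x axis, TPM on a log scale; y axis, genes by sector); filled symbols are members and open symbols the other subunits. Tcirg1 lies above every member, at 1300 to 2072 TPM, and the means of the other open genes lie below those of the members of the same sector.

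A further 3 lists put the members beside the rest of the pathway. Of 26 other hydrolases and cofactors, 25 reached 1 TPM, with a median of 31.0 TPM. Galc, galactosylceramidase, had 156 ± 32.8 TPM (SD, n = 3) and Fuca1, a fucosidase, 84.3 ± 24.8 TPM, both among the 3 highest. Gm2a, the GM2 activator, at 1.21 ± 0.25 TPM and Acp5, the osteoclast-associated acid phosphatase, at 0.840 ± 0.85 TPM were lowest. Among 22 other lysosomal membrane genes the median was 37.9 TPM. The channel gene Tpcn2 had 504 ± 98.2 TPM, the peptide transporter gene Slc15a3 301 ± 58.6 TPM and the metal transporter gene Slc11a1 240 ± 41.4 TPM, while Laptm4b had 0.877 ± 0.68 TPM and Lamp3 no counts. The 21 genes of lysosome control and enzyme sorting had a median of 41.9 TPM, led by Flcn at 189 ± 20.8, Fnip1 at 141 ± 29.3 and Lamtor3 at 99.4 ± 24.4 TPM. Lamtor5 and Lamtor2 ended that list at 2.97 ± 0.28 and 1.68 ± 0.25 TPM. The medians of all these lists lay below the 112.5 TPM of the 37 members, and none of the differences was tested.

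Which library was highest followed the scaling. Replicate 1 gave the highest TPM in 19 of the 37 members, as it did in 59.7% of the 15332 genes at 1 TPM or more, and the lowest in 11, beside 23.4% of those genes. With the ribosomal DNA locus genes left out before scaling, replicate 1 was the highest in 6 of the 37 and the lowest in 25, beside 41.2% and 39.8% of all such genes, and the difference was not tested. Lamp2 kept its order, with 331, 172 and 212 TPM on that scale, and so did Psap, with 1700, 2612 and 2431 TPM. For Tfeb, by contrast, the values became 56.7, 69.3 and 72.0 TPM, with replicate 1 below both others.

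The RNA amount is the only labelled difference between the libraries, and the change per doubling of it was fitted across 13993 genes with edgeR, whose TMM factors set the scale. Over all genes 633 (4.52%) were called higher and 399 (2.85%) lower with more RNA. Of 36 members tested, 1 was called in each direction. Lamp2 (chrX:38401357-38456454, minus strand) rose by 0.46 ± 0.13 (log2 per doubling, SE), with an adjusted p of 0.0229 in edgeR. Atp6v1b2 (chr8:69088646-69113711, plus strand) fell by 0.46 ± 0.13, with an adjusted p of 0.025 in edgeR. Smpd1 did not pass the count filter. LAMP2 is a receptor of chaperone-mediated autophagy beside its structural role, and the B subunit binds nucleotide in V1. The Lamp2 values were highest in the 1000 ng library and lowest in the 250 ng library, and for Atp6v1b2 the 250 ng library was the highest. Neither gene was called in DESeq2 (adjusted p 0.0594 for Lamp2 and 0.0694 for Atp6v1b2) or in edgeR on the kallisto-type counts (adjusted p 0.122 and 0.0625). The Lamp2 estimate was 0.25 without replicate 1 and 0.66 without replicate 2, and those 2 values have no test. The fit has a single residual degree of freedom, and effects of the amount cannot be told apart from whatever else differed among the libraries. Replicate 3, at 500 ng, lies midway on the log2 scale, so each estimate is in essence the contrast between replicates 1 and 2.

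Most other members had estimates below 0 that did not pass the test. Of the 36, 30 (83.3%) had a lower estimate and the median was -0.15, beside 51.4% and -0.01 over all genes tested. The other lysosomal lists had smaller shares below 0, with 7 of 20 membrane genes and 15 of 25 hydrolases and cofactors. The other V-ATPase genes had 5 of 8 below 0, and the control and sorting genes 12 of 20. These differences between lists were not tested. An unadjusted p under 0.05 was reached by 9 members (25.0%) and by 23.1% of all genes. All 8 glycosidases had estimates below 0, from Gaa at -0.45 ± 0.15 (SE) to Gla at -0.01 ± 0.14, although Gla was at 0.00304 with the RLE size factors, which left 7, and 5 of 8 were below 0 without replicate 1. After Atp6v1b2 and Gaa the lowest estimates were those of Grn at -0.38 ± 0.14, Cd63 at -0.37 ± 0.14 and Psap at -0.33 ± 0.14. The V1 genes were divided: Atp6v1d, Atp6v1e1 and Atp6v1h had 0.21 ± 0.14, 0.28 ± 0.13 and 0.16 ± 0.13, and the other 3 were below 0. Asah1 had 0.31 ± 0.13. The count below 0 was 29 of 36 with RLE size factors, but 23 of 36 from replicates 2 and 3 alone and 24 of 36 from replicates 1 and 3 alone.

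**Figure D4:**
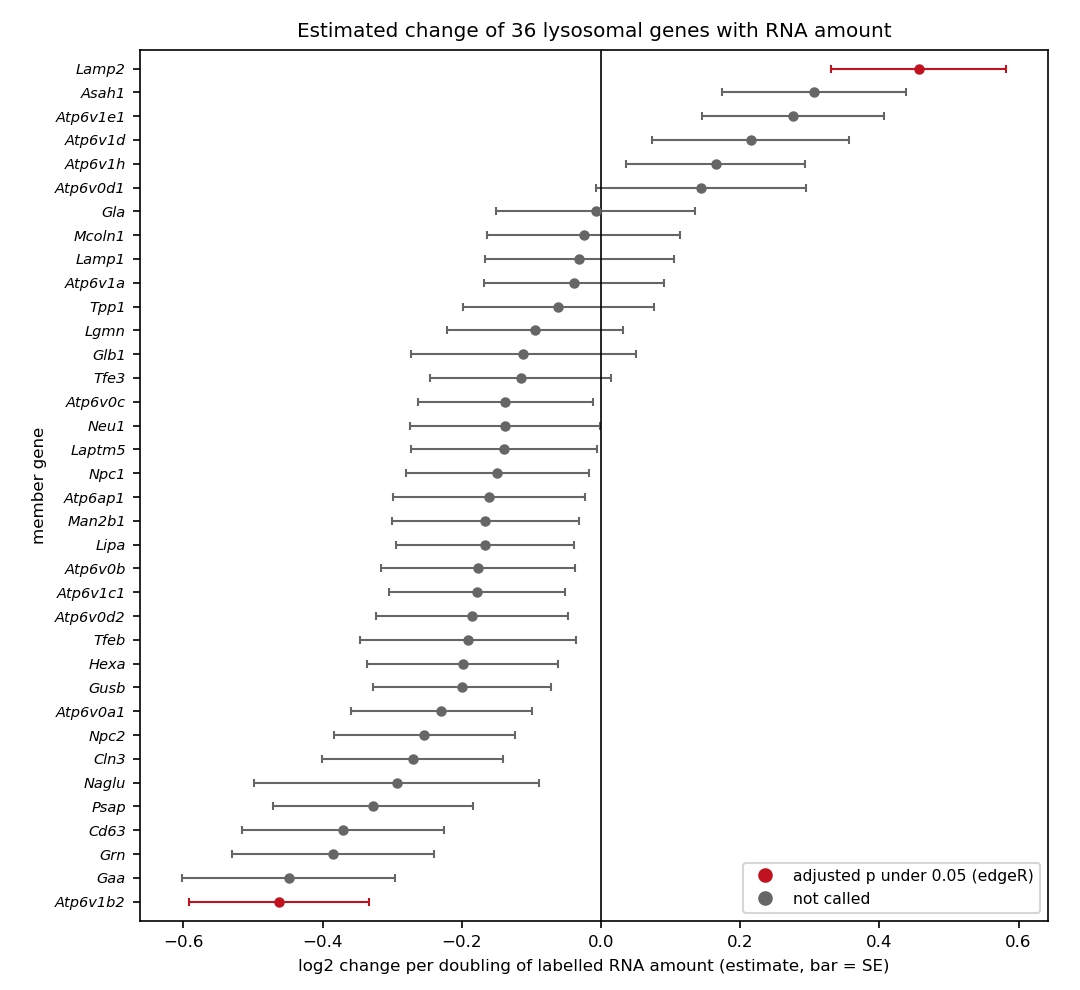
Estimated log2 change per doubling of labelled RNA amount (x axis, edgeR estimate with its SE as a bar) for the 36 tested lysosomal genes (y axis). Lamp2 and Atp6v1b2, in red, are the 2 genes called, and 30 of the 36 estimates lie below 0.

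The other lysosomal lists held 5 called genes of 73 tested (6.85%), near the 7.38% over all genes. The other V-ATPase genes had 0 higher and 1 lower of 8 tested, the other hydrolases 0 and 0 of 25, the other membrane genes 1 and 1 of 20, and the control and sorting genes 1 and 1 of 20, by edgeR at an adjusted p under 0.05. Of the 25 hydrolases 2 had an unadjusted p under 0.05 in edgeR, and DESeq2 and the kallisto-type counts called none of them. Among the called genes, Tfec rose and Tcirg1, Slc11a1 and Igf2r fell, and these were named after their values were seen. Tfec rose by 0.67 ± 0.14 (log2 per doubling, SE), with an adjusted p of 0.00206 in edgeR, and was also called by DESeq2 and on the kallisto-type counts. Slc11a1 and Igf2r were called by neither, and Igf2r also overlaps Airn on the opposite strand. Of the other V-ATPase genes DESeq2 called 1 lower and the kallisto-type counts 0.

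The transcripts that took the counts were often not the coding ones. A transcript annotated as a retained intron, one in which an intron is kept in the RNA, exists for 27 of the 37 genes, and 26 of them had at least 50 counts. In these 26 the retained-intron share of the gene's counts had a median of 35.1%, beside 26.1% over 5990 such genes in all. The share exceeded 50% in 8 of 26 members (30.8%) and in 25.2% of all such genes. The leading transcript was protein coding in 25 of the 37 members, a retained intron in 9, a processed transcript in 2 and a target of nonsense-mediated decay in 1. The same tally was not made over all genes, so it does not set the members apart. The shares rest on a model that divides reads among overlapping transcripts, and RNA not yet spliced cannot be told apart in them from RNA that keeps an intron. On the kallisto-type table the retained-intron share moved in 18 of the 26 members, so the values of single genes depend on the quantification.

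Tfe3 and the hydrolase gene Neu1 were nearly all retained-intron counts. Tfe3 had 96.5%, 96.4% and 93.2% in replicates 1, 2 and 3, and Neu1 had 98.5%, 91.8% and 89.7%. Tfeb was the opposite, with 7.89%, 8.99% and 8.44%, the lowest share of the 26. The ranges of the related factors Tfe3 and Tfeb are thus far apart, although both genes carry transcripts annotated as retained introns. In V1, Atp6v1h had 92.1%, 82.5% and 80.2%, Atp6v1e1 78.8%, 74.6% and 71.8%, and Atp6v1c1 62.1%, 64.4% and 55.4%. Tpp1 and Npc2 lay near each other at 66.7 ± 1.84% and 66.7 ± 1.32% (SD, n = 3), and Cd63 at 51.4 ± 1.33%. At the low end, after Tfeb, were Atp6v0d1 at 11.1 ± 3.07% and Lamp1 at 15.0 ± 1.52%.

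Replicate 3 had the lowest retained-intron share in 21 of the 26 members (80.8%) and the highest in none, beside 49.3% and 15.0% of the 5990 genes. The medians of the members were 37.3%, 34.3% and 30.1% in replicates 1, 2 and 3, and those of all such genes 28.0%, 26.0% and 24.0%, so the order of the libraries was the same in both. Atp6v1b2 spanned 44.5%, 37.3% and 26.9% and Npc1 23.0%, 14.2% and 10.4%, which are wide spreads, while the 2 Lamp genes stayed within 22.2% to 24.0% and 13.4% to 16.4%.

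Other kinds of transcript led in a few members. A single processed transcript, Atp6v0c-205, took 90.0%, 93.7% and 90.5% of the Atp6v0c counts, so that only 7.70 ± 2.17% (SD, n = 3) fell on coding transcripts. In Atp6v0a1 the processed transcript Atp6v0a1-209 held 62.3%, 54.2% and 42.8%, highest in replicate 1, and the coding Atp6v0a1-202 held 26.6%, 36.2% and 46.4%. The leading Gusb transcript, Gusb-206, is annotated as a target of nonsense-mediated decay and held 42.7%, 39.3% and 38.2%. Lamp2 was spread over the coding Lamp2-202 at 42.3 ± 0.67%, the processed transcript Lamp2-205 at 26.8 ± 1.19% and the retained-intron Lamp2-204 at 23.2 ± 0.93%. These Lamp2 shares differed little between libraries although its level did. Psap, Hexa, Atp6v0d2 and Gla had all their counts on coding transcripts, Hexa with 1 annotated transcript. Over 36 members the median share on coding transcripts was 64.5%, beside 78.8% over 8886 genes.

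**Figure D5:**
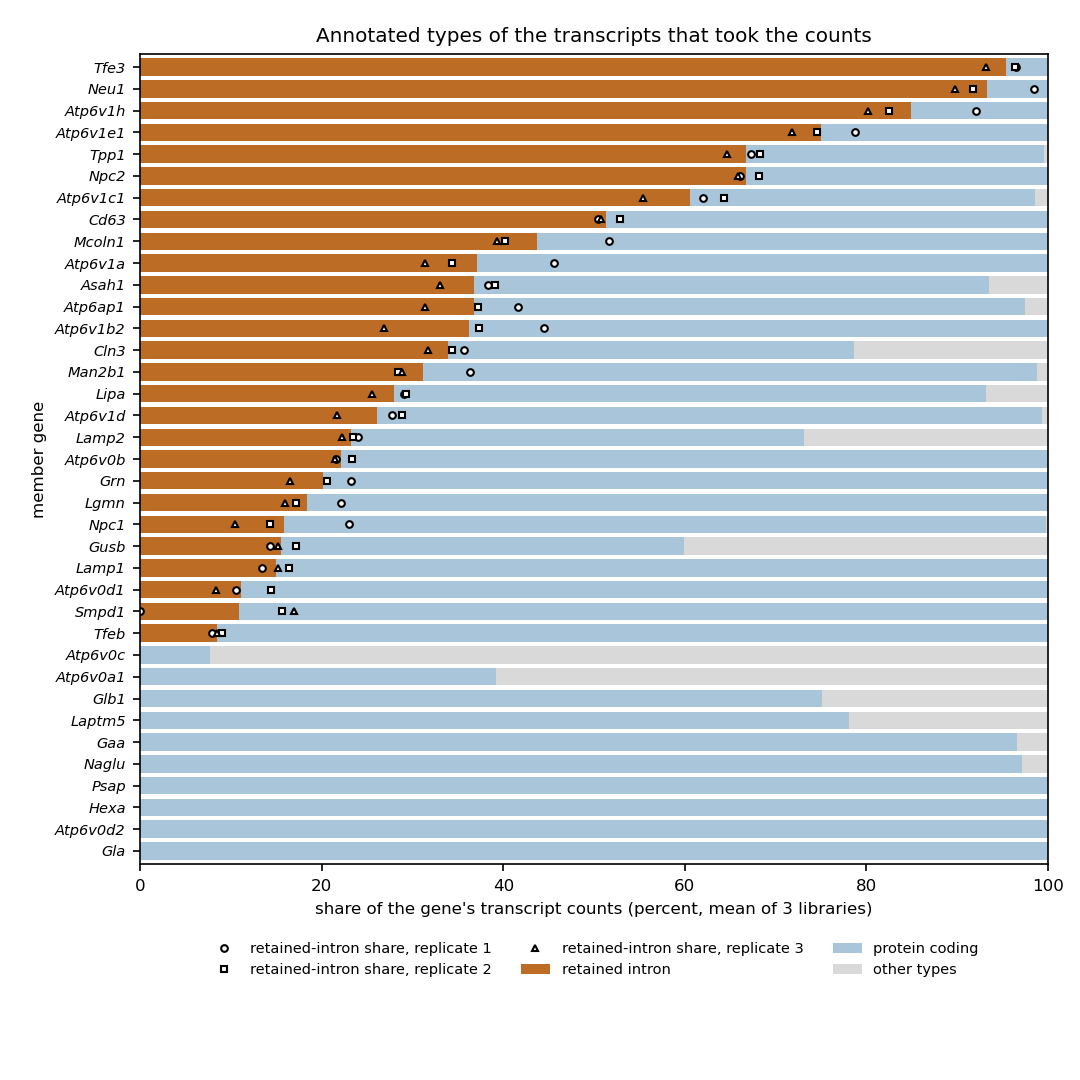
Share of each gene's transcript counts on retained-intron, protein-coding and other transcripts (x axis, percent, mean of 3 libraries) for the 37 lysosomal genes (y axis); open symbols give the retained-intron share per library, and Smpd1 has fewer than 50 counts. Tfe3 and Neu1 lie above 89% retained intron in every library and Tfeb below 9%, while Atp6v0c counts fall almost wholly on a processed transcript.

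Several members overlap genes on the opposite strand, and the strand setting of the counting was not stated in any file or label used, so reads of the partners may not be separated. These are Lamp1 with Grtp1, Npc1 with Rmc1 and Gm15956, Hexa with Tmem202, Cln3 with Apobr, Grn with Fam171a2, Atp6v0b with Gm12841, Atp6v1b2 with Slc18a1, Atp6v1e1 with Slc25a18 and Atp6v1h with Rgs20. Glb1 shares its strand with the overlapping gene Tmppe. Their levels are uncertain to that extent.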

How the data were processed

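Chromatin-fraction total RNA was measured in 3 libraries of 1 group, named by the replicate number in the labels. The deposited gene and transcript tables hold expected counts and TPM as RSEM writes them, and another deposited transcript table per library has estimated counts and TPM under kallisto column names (all per the file headers). Assembly mm10 and annotation M21 are named in the deposited readme files. No aligner, version, strand setting or filter was stated: these were not given in the sources used here.

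Levels are expected counts per effective length, rescaled to TPM across genes of at least 300 nt, since shorter genes, tRNA and spike-in entries held 67.1%, 62.1% and 61.7% of the deposited TPM. The change with log2 RNA amount was fitted with edgeR 4.0.16 in R 4.3.3 (expected counts rounded to whole numbers, TMM, filterByExpr with the libraries as 1 group, quasi-likelihood F test, Benjamini-Hochberg over all genes tested, called at 0.05). The SE was derived from the F statistic. The fit was tested on simulated data with 200 changed genes, at dispersions (extra spread between libraries) of 0.02 and 0.1. A change of 0.5 (log2 per doubling) was recovered in 46 and 0 genes, with 1 and 0 false calls. A change of 1 was recovered in 178 and 33, with 5 and 2 false calls. A gene that was not called may therefore still differ with the amount. Replicates are labelled biological, but the labels do not say whether they came from separate animals, so p-values concern these samples only. With 1 residual degree of freedom per gene, the spread behind them was largely shared across genes by edgeR. Transcript shares used genes with at least 50 expected counts. Gene names and types came from GENCODE M21 and promoters from RefSeq (GRCm38.p6). Tables and figures were made in Python 3.11.15 with pandas 2.3.3, numpy 2.4.6 and matplotlib 3.10.9.

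The members, lists, markers and tests were chosen with earlier results of these data known. Every member was named, and of each other list the 3 highest and 2 lowest, except that some genes of those lists are not reported here. Alternatives were the kallisto-type table, the TPM as deposited, leaving out ribosomal DNA locus genes, pseudocounts of 1 and 0.1, a 1 TPM minimum, RLE factors, DESeq2 1.42.0, no count filter, count minimums of 10 and 200, shares of TPM, bases before the start only, and leaving out each replicate. Genes of any length, a count filter from the design and the coding share were added after seeing the data.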

Additional observations from a re-analysis of the deposited data

How the results depend on the processing

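The median member level of 112.5 TPM was 40.8 on the deposited TPM scale and 140.7 (TPM) with the ribosomal DNA locus genes left out, because each changes the genes that the scaling is taken over. The other 7 settings gave values within the spread between libraries, and leaving out 1 library gave 107.0 to 115.6 TPM. The 1032 genes called with RNA amount, of 13993, became 386 of 8024 with an adjusted p in DESeq2 and 369 of 21997 on the kallisto-type counts. There the 2 members called became 0 and 0, and the cause was not tested. An unadjusted p under 0.05 was reached by 6 and 7 of 36 members, and the share over all genes was not taken in these settings. Under the 5 other settings both Lamp2 and Atp6v1b2 were called. From 2 libraries no residual degree of freedom is left, so no calls are given. Of the member changes fitted to all 3 libraries, 5 reversed, all small and not called: Atp6v0d1 was at -0.0459 and Atp6v1a at 0.0615 on the kallisto-type counts, and Gla at 0.00304 with RLE factors, 0.00305 in DESeq2 and 0.0517 on the kallisto-type counts. Estimates from 2 libraries were less stable: 13 of 36 changed sign without replicate 1 (Naglu from -0.29 to 0.50) and 6 without replicate 2 (Atp6v0d2 from -0.18 to 0.39). In these 2 settings 23 and 24 changed sign or moved by more than their SE. Without replicate 3 the counts were 0 and 0. That outcome was fixed by the design, since its 500 ng lies midway on the log2 scale and hardly affects a slope. The median retained-intron share of 35.1% was 42.8% as a share of TPM, since that weights short transcripts more, and 32.5% to 36.9% without 1 library. The motif counts and the median coding share stayed within 1.5 times, or within the spread between libraries, under the settings run for them. Shares of single members held less well. The retained-intron share moved in 18 of 26 members on the kallisto-type table and in 20 of 26 as a share of TPM. The coding share moved in 26 of 36 on the kallisto-type table. With 3 libraries of 1 group, small differences between members are below what the spread allows, and Smpd1, with 5 to 23 counts, is limited by depth. No paired analysis was possible because there is only 1 group.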

Other observations

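Processed pseudogenes of 2 members were listed in the tables. Cd63-ps had 2.00, 17.9 and 14.0 expected counts in replicates 1, 2 and 3, and Atp6v0c-ps2 had 3.10, 7.37 and 5.79, while Atp6v0c-ps1 had none. These are small beside the counts of Cd63 and Atp6v0c.

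A related pair of lysosomal genes differed widely in chromatin RNA. Laptm5 exceeded Laptm4a by 6.24-, 11.1- and 10.3-fold in replicates 1, 2 and 3.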
